A study of Mus musculus with 8 samples.

Results

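Ubiquitin-specific proteases were followed through an RNA immunoprecipitation from mouse testis, by taking every gene name on the array that begins with Usp and a digit. The choice gave 50 of 27962 gene names and 107 of 41174 probes. The family was chosen by the measured difference of IgG from input, in which Usp19 stood among the highest transcripts, so the values of Usp19 on the IgG and input arrays are given as a description and not as a finding. Of the 50 members, 48 are called measured, since a probe of theirs was well above background on each array of 1 group or more. A probe that is bright in a single group passes this filter through that group. Usp44 and Usp50 were not above background on any array.

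The study asked which RNAs come down with Dazl, a germ cell protein that binds RNA. All 4 groups came from testes of male mice of a mixed C57BL/6 and 129SV background at postnatal day 14, whose germ cells expressed Dazl joined to the tags GFP and V5, and each group was hybridised to 2 one-colour arrays. The groups were a precipitate with an antibody against V5, a precipitate with an antibody against GFP, a mock precipitate with normal mouse IgG, and input total RNA without precipitation. The tagged fusion was thus present in the mock and the input as well. Lysates were not crosslinked, and the promoter of the fusion, the number of animals and whether animals were pooled are not given in the sources used here.

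Ubiquitin is a small protein that cells attach to other proteins as a signal, often for destruction by the proteasome. Ubiquitin-specific proteases are cysteine proteases that remove it again, and they form the largest family of deubiquitinating enzymes, with roles in DNA repair, chromatin, protein quality control, endocytosis and mitochondrial turnover. In the testis, chromatin remodelling and the removal of proteins during meiosis and sperm formation rely on ubiquitin, and several members lie on the X or Y chromosome. Dazl binds messenger RNAs, mostly in their 3′ untranslated regions, and promotes their translation. The name rule also took Usp6nl, a GTPase activating protein that is no protease, and Usp52, named Pan2 in RefSeq, a subunit of a nuclease that shortens poly(A) tails.

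Of 43379 non-control spots, 57.2% to 62.2% were well above background on each array, and 0 were saturated. Arrays of a group correlated across probes at 0.9898 to 0.9929, and the replicates of IgG lay furthest apart, with a median absolute log2 difference of 0.159, against 0.077 to 0.092 in the other groups. Whether replicates came from separate animals is not labelled, so p-values reflect only how far these arrays lie apart, which may be technical. The V5 and GFP arrays lay on one slide and the IgG and input arrays on another, so slide and group cannot be told apart wherever a tag precipitate is compared with the mock or the input. PABP1 is named as an antibody target in the series text in place of GFP, and the sample labels were followed. The descriptions of V5 replicate 1 and input replicate 2 name the opposite kind of RNA from their titles, and the titles were followed. Results without both arrays are given as well. All 8 germ cell markers were above background on both input arrays, but so were the measured markers of other cells, namely 8 Sertoli, 5 Leydig, 5 myoid, 6 leukocyte, 5 endothelial and 3 erythroid markers. Transcripts of other cells were thus present.

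Values below are relative log2 signals, that is, log2 of an array's processed signal minus the 75th percentile of that array. Differences are means of 2 arrays each and carry the standard error of limma's moderated test, and a member is called higher or lower where limma's adjusted p over all 17593 genes was under 0.05. The brightest measured probe stands for a gene.

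Usp19 encodes a protease anchored in the endoplasmic reticulum, where it protects substrates from degradation, and forms in the cytosol also exist. On the 2 arrays of each group its relative log2 signal was 6.02 and 5.91 with V5, 5.69 and 5.66 with GFP, 6.34 and 6.51 with IgG, and 2.78 and 2.91 in input. All 6 precipitate arrays lay far above both input arrays, and the mock lay above both tag precipitates. The dimmer of its 2 probes gave the same order, with 4.69 and 4.73 for V5, 4.38 and 4.43 for GFP, 5.03 and 5.28 for IgG, and 1.83 and 1.81 for input.

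**Figure D1:**
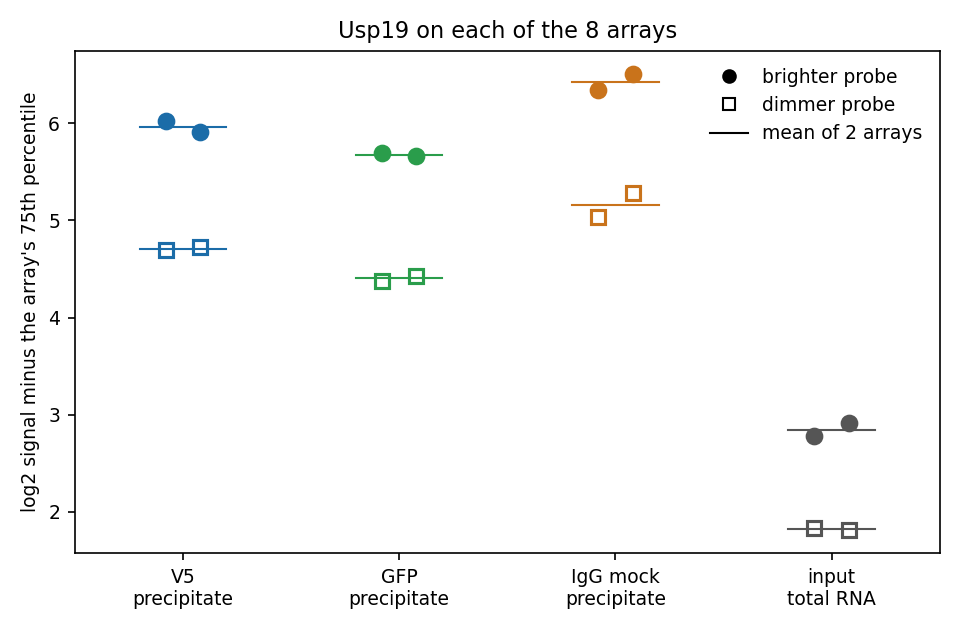
Relative log2 signal of Usp19 (log2 processed signal minus the array's 75th percentile) for each array of the V5, GFP, IgG and input groups, with filled circles for the brighter probe, open squares for the dimmer one and lines for the mean of 2 arrays. On both probes the precipitates lie above the input and the IgG mock lies highest.

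As linear processed signal, the brighter probe of Usp19 read 73665 and 78126 with IgG, against 7075.8 and 7376.1 in input. The difference of IgG from input was 3.58, or 12.0-fold, which ranked 2 of 17593 genes after BC071254, a clone name, at 3.68. The tag precipitates differed from input by 3.12 with V5 (8.71-fold, rank 4) and by 2.83 with GFP (7.13-fold, rank 12). Both tag precipitates held less of it than the mock, at -0.46 for V5 minus IgG and -0.75 for GFP minus IgG. The size of this depends on the scaling: it was -0.10 and -0.28 with spike-in scaling, and -0.20 and -0.46 with median scaling. These values chose the member, and they carry no test here. Between V5 and GFP, which the choice did not use, the difference of 0.29 ± 0.088 had an adjusted p of 0.0689 (limma) and was not called.

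The genes next to Usp19 in the RefSeq annotation had smaller differences. IgG minus input was 1.87 for Qars, the neighbour on one side, and 0.36 for Lamb2, the neighbour on the other. Further out it was 0.56 for Ccdc71, 1.15 for Klhdc8b and -0.59 for Impdh2, while Qrich1 was not measured.

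For the other members, too, IgG minus input is a description. It was positive for 19 of the 48 measured members and negative for 29, with a median of -0.30 beside 0.22 over all genes, and it reached at least 2-fold upward in 7 and downward in 13, where 15.4% of all genes did so upward and 12.7% downward. Of all genes, 73.2% were called in this comparison, 43.9% higher and 29.3% lower. No test of members is given here, since this comparison chose the family, and the counts above include Usp19.

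The comparison with the mock asks which member transcripts came down with tagged Dazl beyond what an unspecific antibody precipitates. Of 47 members tested, without Usp19, 7 were higher and 8 lower with V5 than with IgG, or 31.9%, where 57.0% of all genes were called, 16.7% higher and 40.3% lower. With GFP 13 were higher and 14 lower than with IgG, or 57.4%, where 73.7% of all genes were called, 21.6% higher and 52.1% lower. Both shares of members called lay below those of all genes in the main fit. The median member difference was 0.02 with V5 and -0.05 with GFP, beside -0.21 and -0.32 over all genes. The split into higher and lower depends on the scaling: with arrays scaled to spike-in RNA 26 members were higher and 0 lower with V5, and 31 higher and 0 lower with GFP, and with scaling to the median 17 and 0 with V5, and 21 and 4 with GFP. Spike-in scaling also moved the median of all genes to 0.16 with V5 and 0.15 with GFP. Of all 17593 genes it called 7119 with V5 and 8992 with GFP, and median scaling called 6420 and 10312. With spike-in scaling both shares of members called thus lay above those of all genes, and with median scaling neither did. Without both arrays of conflicting descriptions a single V5 array is left, and calls with V5 fell sharply both among members and over all genes. The median member difference was then -0.04 with V5, beside -0.20 over all genes. With GFP it was -0.05, beside -0.32.

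**Figure D2:**
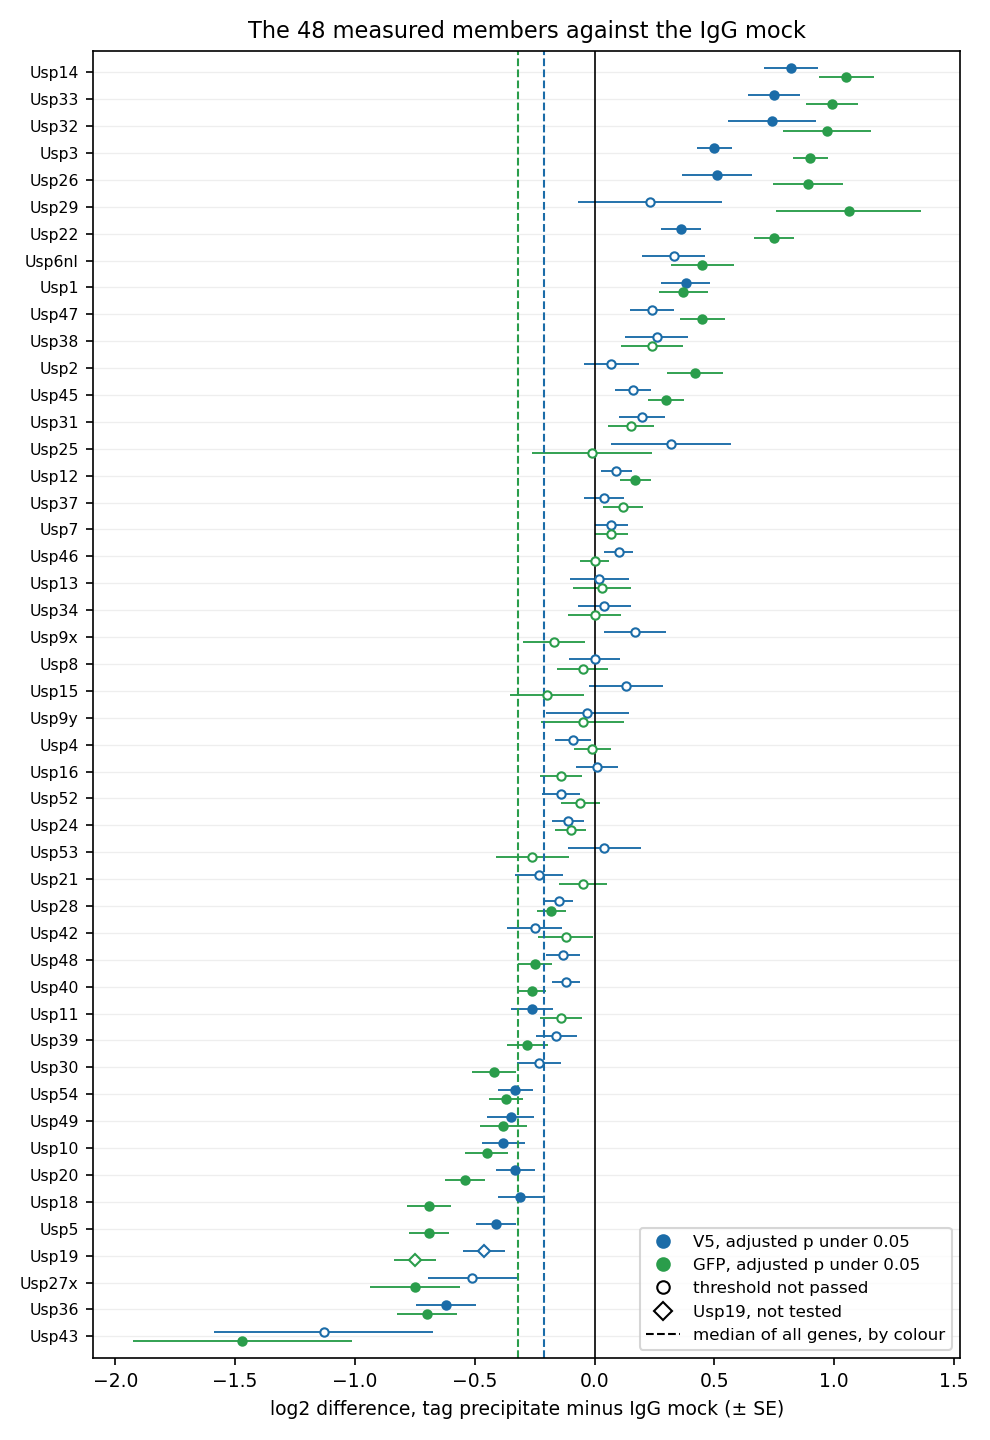
Log2 difference of the V5 (blue) and GFP (green) precipitate from the IgG mock, ± SE, for each of the 48 measured members, sorted by the sum of both. Filled circles passed an adjusted p of 0.05, open circles did not, diamonds are Usp19, which was not tested, and dashed lines mark the medians of all genes at -0.21 and -0.32. Usp14, Usp33 and Usp32 lie at the upper end with both tags, and Usp43 and Usp36 at the lower end, though with spike-in scaling 0 members were called lower.

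Of 4 tested members of the proteasome and chain recycling list, 1 was higher and 1 lower with each tag. Usp14 is a subunit of the proteasome that trims ubiquitin from substrates before they are degraded. Its relative log2 signal was 0.20 and 0.07 with V5, 0.49 and 0.25 with GFP, and -0.57 and -0.79 with IgG, so both tag groups lay above the mock without overlap. In either direction, arrays did not overlap with those of IgG in 80.1% of all genes with V5 and 86.4% with GFP. The difference from IgG was 0.82 ± 0.114 with V5 (1.76-fold, adjusted p = 0.00322) and 1.05 ± 0.114 with GFP (2.07-fold, adjusted p = 0.000453). All 3 probes of Usp14 were higher, from 0.82 to 0.90 with V5 and from 1.05 to 1.24 with GFP. Usp5, which disassembles free ubiquitin chains, was lower: it had 1.17 and 1.25 with V5, 0.88 and 1.0 with GFP, and 1.55 and 1.71 with IgG. That is -0.41 ± 0.083 with V5 (adjusted p = 0.0082) and -0.69 ± 0.083 with GFP (adjusted p = 0.000615). These calls of Usp5 ended with spike-in scaling (-0.05 with V5, -0.21 with GFP), and that with V5 also with median scaling (-0.15). Usp13 (0.02 ± 0.122 with V5, 0.03 ± 0.122 with GFP) and Usp25 (0.32 ± 0.251, -0.01 ± 0.251) did not pass with either tag.

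Among members of DNA repair and chromatin, 3 of 12 were higher and 2 lower with V5, and 4 higher and 3 lower with GFP. Of all genes, 16.7% were higher and 40.3% lower with V5, and 21.6% and 52.1% with GFP. Usp3, which removes ubiquitin from histones, had 1.21 and 1.23 with V5, 1.69 and 1.56 with GFP, and 0.69 and 0.76 with IgG. It was higher by 0.50 ± 0.074 with V5 (adjusted p = 0.00374) and by 0.90 ± 0.074 with GFP (adjusted p = 0.000216), and its other probes gave 0.27 and 0.30 with V5. Usp22, the histone deubiquitinase of the SAGA coactivator complex, had -0.80 and -0.86 with V5, -0.45 and -0.42 with GFP, and -1.28 and -1.10 with IgG, which made it higher by 0.36 ± 0.084 and 0.75 ± 0.084. Usp1, which acts on the Fanconi anaemia protein FANCD2, was higher by 0.38 ± 0.103 with V5 and 0.37 ± 0.103 with GFP. Usp47, which acts on DNA polymerase beta, passed with GFP (0.45 ± 0.093) and not with V5 (0.24 ± 0.093). Its other measured probes were at -0.11, 0.08 and 0.42 with GFP, so its value there depends on the probe. Lower were Usp49, a histone H2B deubiquitinase, with V5 (-0.35) and GFP (-0.38), Usp11 with V5 (-0.26), and Usp28 (-0.18) and Usp48 (-0.25) with GFP. With spike-in scaling the sign turned for Usp49 (0.02 with V5, 0.10 with GFP), Usp11 (0.10), Usp28 (0.29) and Usp48 (0.22). The other measured probe of Usp49 was at 0.07 with V5 and 0.45 with GFP, and with the mean of both Usp49 was at -0.14 and 0.04.

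Among members that act on receptors, endosomes and the Golgi, Usp33 and Usp32 were higher and Usp20 lower with both tags. Usp33, which deubiquitinates receptors, had 0.74 and 0.60 with V5, 0.97 and 0.85 with GFP, and 0.06 and -0.21 with IgG. Its difference from IgG was 0.75 ± 0.109 with V5 (1.68-fold, adjusted p = 0.00359) and 0.99 ± 0.109 with GFP (1.98-fold, adjusted p = 0.000478). Usp32, a protease bound to Golgi membranes, had 0.19 and 0.15 with V5, 0.49 and 0.31 with GFP, and -0.27 and -0.87 with IgG, a wide pair. It was higher by 0.74 ± 0.184 (adjusted p = 0.016) and 0.97 ± 0.184 (adjusted p = 0.00334). The probes of both genes disagreed: the dimmer probe of Usp32 was at -1.16 with V5 and -1.14 with GFP, and 1 of 4 probes of Usp33 at -2.06 and -1.93, while the other 3 were positive with both tags. Both dissenting probes were near background: that of Usp32 was above it on 2 of the 6 precipitate arrays, and that of Usp33 on 4. Their differences, and the means that include them, thus rest partly on signal not above background. With the mean of the measured probes Usp32 was at -0.21 with V5 and -0.08 with GFP, and Usp33 at -0.10 with V5 and 0.17 with GFP, and neither passed. Usp20, a close relative of Usp33, was lower by -0.33 ± 0.083 with V5 and -0.54 ± 0.083 with GFP, with its dimmer probe at -0.44 and -0.71, but with spike-in scaling it was at 0.03 with V5. With GFP Usp2 (0.42 ± 0.116) and Usp12 (0.17 ± 0.065) also passed, and with V5 they were at 0.07 and 0.09 and did not.

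Usp36, a nucleolar protease needed for ribosome formation, was lower than the mock with both tags, though its call ended with spike-in scaling (-0.25 with V5, -0.23 with GFP). It had 0.76 and 0.78 with V5, 0.64 and 0.73 with GFP, and 1.20 and 1.57 with IgG, or -0.62 ± 0.126 with V5 (adjusted p = 0.00866) and -0.70 ± 0.126 with GFP (adjusted p = 0.00259). Its dimmer probe gave -0.58 and -0.77. Usp10, which acts in autophagy and with the stress granule protein G3bp1, was lower by -0.38 ± 0.089 with V5 and -0.45 ± 0.089 with GFP, and Usp30, of the outer mitochondrial membrane, by -0.42 ± 0.092 with GFP. With spike-in scaling Usp10 (0.02) and Usp30 (0.06) turned positive with GFP. Usp18, which removes the ubiquitin-like protein ISG15 in interferon signalling, was lower by -0.31 ± 0.093 with V5 and -0.69 ± 0.093 with GFP, and with spike-in scaling it was at 0.05 with V5. Usp39, a splicing factor without protease activity, was lower with GFP (-0.28 ± 0.086), and Usp54, also held to be inactive, with V5 (-0.33 ± 0.072) and GFP (-0.37 ± 0.072). Spike-in scaling turned these to 0.20 for Usp39 with GFP, and 0.03 and 0.10 for Usp54 with V5 and GFP.

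Usp26, an X-linked gene expressed mainly in testis, was higher with both tags. It had -1.61 and -1.25 with V5, -1.02 and -1.07 with GFP, and -1.79 and -2.09 with IgG, or 0.51 ± 0.145 with V5 (adjusted p = 0.0241) and 0.89 ± 0.145 with GFP (adjusted p = 0.00171). Its dimmer probe was at -0.16 with V5 and 0.58 with GFP, with IgG replicates far apart at -3.09 and -5.98, and with the mean of both probes neither call held (0.18 with V5, 0.74 with GFP). Usp29, known from mouse as an imprinted gene, was near background, with 4 of 8 arrays above it, and passed the filter through GFP alone, where it is highest. Its values of -4.57 and -4.49 with GFP, against -6.05 and -5.13 with IgG, are therefore a description, although it is among the 13 members counted as higher. Usp27x, also X-linked, was lower with GFP (-0.75 ± 0.187) and at -0.51 ± 0.187 with V5, which did not pass. Usp43 had the lowest difference with GFP (-1.47 ± 0.457), but its IgG arrays read -2.92 and -4.49, and without IgG replicate 1 the value was -0.69 and without IgG replicate 2 -2.25. Usp6nl (0.45 ± 0.132) and Usp45 (0.30 ± 0.075) were higher and Usp40 (-0.26 ± 0.058; 0.22 with spike-in scaling) lower with GFP.

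Several of these calls rested on single arrays. With V5 against IgG, the count of members higher was 4 without V5 replicate 1, 4 without V5 replicate 2 and 12 without IgG replicate 1, and that of members lower was 4 without V5 replicate 1 and 5 without V5 replicate 2. Single calls ended for Usp1 without either V5 array (0.38 and 0.37) or IgG replicate 2 (0.24), for Usp32 without V5 replicate 1 (0.72) or 2 (0.76), for Usp26 when V5 replicate 2 (0.33) or IgG replicate 2 (0.36) was left out, and for Usp22 without V5 replicate 1 (0.33). Among the lower members they ended for Usp20 without V5 replicate 1 (-0.32) or 2 (-0.35), for Usp18 without either V5 array (-0.29 and -0.34) or IgG replicate 2 (-0.21), and for Usp10 without V5 replicate 1 (-0.37). They also ended for Usp49 without V5 replicate 1 or IgG replicate 2 (-0.25 each), for Usp54 without V5 replicate 2 (-0.31), and for Usp11 without any 1 array of V5, IgG or input (-0.22 to -0.30). The calls of Usp14, Usp33, Usp3, Usp36 and Usp5 with V5 held without each of the 8 arrays in turn, though not under every scaling or choice of probe.

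With GFP against IgG 8 members were higher without GFP replicate 1. Calls ended without GFP replicate 1 for Usp1 (0.31), Usp2 (0.33), Usp12 (0.18), Usp28 (-0.17), Usp39 (-0.25), Usp45 (0.25), Usp48 (-0.19) and Usp6nl (0.47). Without GFP replicate 2 they ended for Usp12 (0.17), Usp28 (-0.19), Usp39 (-0.30), Usp43 (-1.29), Usp49 (-0.37) and Usp6nl (0.43). Without IgG replicate 1 they ended for Usp2 (0.34) and Usp12 (0.18), and without IgG replicate 2 for Usp12 (0.17), Usp27x (-0.65), Usp28 (-0.17), Usp39 (-0.24), Usp48 (-0.22) and Usp49 (-0.28). Usp12 no longer passed without any 1 of the V5 or input arrays either (0.17 each), nor did Usp28 without either input array (-0.18 each).

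Markers of the cell types in the sample also differed between these groups, though counts and sums of the germ cell list went in opposite directions. Of 8 germ cell markers 5 were higher and 1 lower with V5 than with IgG, and likewise with GFP (medians 0.72 and 0.97), while 0 markers of the 6 other cell types were higher with either tag. Lower with V5 were 7 of 8 Sertoli, 5 of 5 Leydig, 5 of 5 myoid, 5 of 6 leukocyte, 4 of 5 endothelial and 2 of 3 erythroid markers, and none of the measured markers was below background on every precipitate array. Of all genes, 16.7% were higher and 40.3% lower with V5, and 21.6% and 52.1% with GFP. Markers were not counted under other scalings, and spike-in scaling moved the median of all genes with V5 from -0.21 to 0.16. Summed over the list, Sertoli markers were at 7.51 to 7.58 with V5, 7.33 to 7.38 with GFP and 7.94 to 7.96 with IgG, as log2 of the summed scaled signal, and germ cell markers at 7.63 to 7.72, 7.56 to 7.57 and 7.80 to 8.03. Their part in the members' differences was not tested. These differences compare what each antibody brought down, and they measure neither the number of cells of a type nor the RNA per cell.

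Dazl's own transcript, the bait, was higher than with IgG by 0.98 ± 0.15 with V5 (adjusted p = 0.00405) and by 1.49 ± 0.15 with GFP (adjusted p = 0.000369). Against input it was lower by -1.09 ± 0.15 with V5 and -0.58 ± 0.15 with GFP, and it differed by -0.51 ± 0.15 between V5 and GFP, which did not pass (adjusted p = 0.0638). Its call for GFP against input ended with median scaling (-0.24), with normexp (-0.75), and without GFP replicate 2 (-0.49) or input replicate 2 (-0.54), and that for V5 against GFP was made without either IgG array (-0.51 each). The call for V5 against IgG ended without both arrays of conflicting descriptions (0.91) and with normexp (0.86).

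Against input the members separated by far larger differences. Of 47 tested, 13 were higher and 23 lower with V5 than in input, or 76.6%, where 73.2% of all genes were called, 37.7% higher and 35.5% lower. With GFP 16 were higher and 23 lower than in input, or 83.0%, where 75.2% of all genes were called, 36.2% higher and 39.1% lower. The shares called lay near those of all genes. Among them are Usp9y and, with GFP, Usp29, which passed the filter on dim probes only through the group where they are high. The median was -0.30 with V5 and -0.23 with GFP, beside 0.01 and -0.06 over all genes. Without both arrays of conflicting descriptions a single input array is left, and calls fell among members and over all genes. The median was then -0.32 with V5 and -0.24 with GFP, beside 0.01 and -0.04 over all genes. With spike-in scaling 7 were higher and 31 lower with V5, and 12 and 29 with GFP, and with median scaling 19 and 17 with V5, and 21 and 17 with GFP. The median of all genes was then -0.42 and -0.38 with spike-in scaling, and 0.32 and 0.28 with median scaling. The 3 precipitates lay closer to each other than to input: the median range between their means was 0.33, while the median absolute difference of their mean from input was 0.69.

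**Figure D3:**
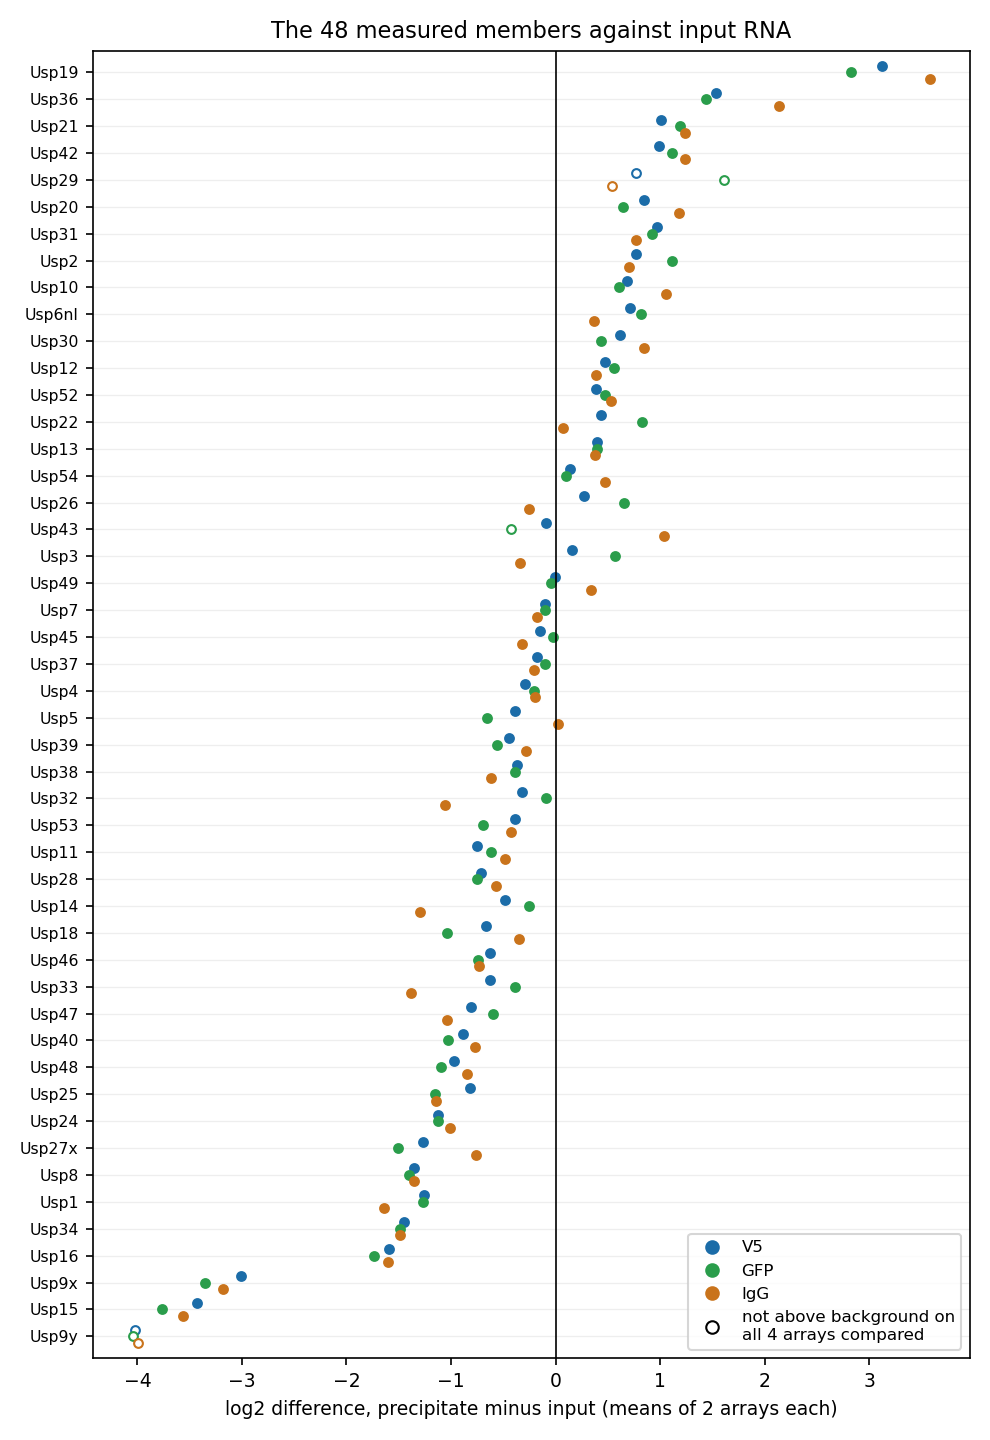
Log2 difference of the V5, GFP and IgG precipitates from input for the 48 measured members, sorted by the sum of the 3 differences, with open circles where a probe was not above background on all 4 arrays compared. Usp19 lies at the top and Usp9y, Usp15 and Usp9x at the bottom in all 3 precipitates, and the 3 circles of a member mostly lie close together.

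Usp9x and Usp9y encode homologous proteases on the X and Y chromosomes, of which Usp9x acts in endocytosis, adhesion and apoptosis. Usp9x had -2.77 and -2.83 with V5, -2.95 and -3.32 with GFP, -2.88 and -3.06 with IgG, and 0.18 and 0.24 in input. It was lower than input by -3.01 ± 0.129 with V5 (8.05-fold, adjusted p = 1.15e-05) and by -3.35 ± 0.129 with GFP (10.2-fold, adjusted p = 6.01e-06), and its dimmer probe by -1.26 and -1.71. Usp9y was not well above background on any of the 6 precipitate arrays, against -2.90 and -2.84 in input, so it was at least 5.82-fold lower with V5 and at least 5.32-fold lower with GFP. It passed the filter through input alone, so these bounds are a description. The bounds set the input mean against the lowest signal that counted as above background, or the probe's own where that was higher. Whether the probes of these homologs detect each other's transcripts was not tested. Neither gene was called against IgG: Usp9x was at 0.17 ± 0.129 with V5 and -0.17 ± 0.129 with GFP, although with V5 it passed with spike-in (0.53) and median scaling (0.43), and with GFP without GFP replicate 1 (-0.35).

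Usp15, which acts in TGF-beta signalling and opposes mitophagy, had -1.83 and -1.77 with V5, -1.93 and -2.34 with GFP, -1.79 and -2.07 with IgG, and 1.57 and 1.69 in input on its brightest probe. It was lower than input by -3.43 ± 0.154 with V5 (10.8-fold, adjusted p = 1.23e-05) and by -3.76 ± 0.154 with GFP (13.6-fold, adjusted p = 6.55e-06). Another pair of its probes gave -3.60 and -3.55 with V5. Another probe gave -0.48, and the last one, at -1.81 and -1.78 with V5 and -1.86 and -1.94 in input, gave 0.11. The probes of Usp15 thus ranged over 3.71 on the log2 scale.

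Other members lower in both tag precipitates than in input included Usp16, a deubiquitinase of histone H2A needed for mitosis. It had 0.39 and 0.36 with V5, 0.22 and 0.22 with GFP, and 1.93 and 1.99 in input, or -1.59 ± 0.086 with V5 (3.0-fold) and -1.74 ± 0.086 with GFP (3.34-fold). Usp34, which acts in Wnt signalling, was at -1.45 ± 0.111 and -1.49 ± 0.111, Usp8, the endosomal deubiquitinase of growth factor receptors, at -1.35 ± 0.106 and -1.40 ± 0.106, and Usp1 at -1.26 ± 0.103 and -1.27 ± 0.103, each with V5 and then GFP. These 3 had adjusted p from 4.22e-05 to 7.47e-05. Usp27x was at -1.27 ± 0.187 with V5 and -1.51 ± 0.187 with GFP, Usp24 at -1.12 ± 0.066 with each tag, and Usp11 at -0.75 ± 0.088 and -0.62 ± 0.088. The dimmer probe of Usp27x, above background on 4 of 8 arrays, was at -0.14 with V5 and -0.46 with GFP. Usp14 and Usp33, higher than the mock, were below input with V5, at -0.48 ± 0.114 and -0.63 ± 0.109. The dimmer probes of Usp14, above background on all 8 arrays, lay further below input. They were at -1.85 and -1.59 with V5, and at -1.52 and -1.25 with GFP, so its values here depend on the probe. The call of Usp14 ended without V5 replicate 2 (-0.41). Usp14 did not pass with GFP (-0.25 ± 0.114), and Usp33 did (-0.39 ± 0.109), though not without GFP replicate 2 (-0.33), input replicate 1 (-0.39) or input replicate 2 (-0.40).

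Of the tested members higher than input, Usp36 had the largest difference with V5. It had 0.76 and 0.78 with V5 and 0.64 and 0.73 with GFP, against -0.70 and -0.81 in input. This was 1.53 ± 0.126 with V5 (2.88-fold, adjusted p = 7.55e-05) and 1.44 ± 0.126 with GFP (2.71-fold, adjusted p = 8.11e-05), with 1.51 and 1.32 on its dimmer probe. IgG minus input was 2.14, so both tag precipitates lay between mock and input. Usp21, a deubiquitinase of histone H2A, was higher by 1.01 ± 0.10 with V5 and 1.19 ± 0.10 with GFP, and Usp31, reported in NF-kappaB signalling, by 0.97 ± 0.096 and 0.92 ± 0.096. Usp2, a protease linked to the circadian clock and to cyclin D1, was higher by 0.77 ± 0.116 with V5 and 1.11 ± 0.116 with GFP, and both of its measured probes were positive. Usp20 was higher by 0.85 ± 0.083 and 0.64 ± 0.083, Usp10 by 0.68 ± 0.089 and 0.61 ± 0.089, and Usp6nl by 0.71 ± 0.132 and 0.82 ± 0.132, with V5 and then GFP. Usp42, another histone deubiquitinase, was higher by 0.99 ± 0.114 and 1.11 ± 0.114, but its dimmer probe was at -0.34 and -0.24, and with the mean of both the V5 call ended (0.33). Usp22 was higher by 0.43 ± 0.084 with V5 and 0.83 ± 0.084 with GFP, and Usp3 (0.57 ± 0.074) and Usp26 (0.65 ± 0.145) passed with GFP and not with V5 (0.16 ± 0.074 and 0.27 ± 0.145). Another probe of Usp3 was at -0.67 for GFP minus input, and with the mean of the measured probes neither GFP call held (0.09 for Usp3, 0.44 for Usp26). Usp29 was not above background in input and was at least 1.76-fold higher with GFP, a description for the reason given above.

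Usp12 (0.47 ± 0.065 with V5, 0.56 ± 0.065 with GFP), Usp30 (0.62 ± 0.092, 0.43 ± 0.092) and Usp52 (0.39 ± 0.081, 0.47 ± 0.081) were also higher on their brightest probes. The dimmer probe of Usp30 was at -0.11 with V5 and -0.36 with GFP. That of Usp12, above background on 5 of 8 arrays, was at -0.10 and -0.23, and that of Usp52 at 2.37 and 2.84. With spike-in scaling the V5 calls ended for Usp12 (0.05), Usp13 (-0.03), Usp22 (0.00), Usp30 (0.19), Usp52 (-0.04) and Usp6nl (0.28), and the GFP calls for Usp13 (0.08), Usp26 (0.33), Usp30 (0.11) and Usp52 (0.15).

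Further calls against input rested on single arrays. Usp13 was higher by 0.40 ± 0.122 with each tag, but the V5 call ended without V5 replicate 1 (0.44), V5 replicate 2 (0.36) or input replicate 1 (0.31), and the GFP call without GFP replicate 1 (0.28) or input replicate 1 (0.31). Usp25 was lower by -0.82 ± 0.251 with V5, a call that ended without any 1 array of V5 or input (-0.72 to -0.93), and by -1.15 ± 0.251 with GFP. Usp38 was lower by -0.37 ± 0.131 with V5 and -0.39 ± 0.131 with GFP, and its calls ended without any 1 array of the groups compared (-0.29 to -0.44 with V5, -0.33 to -0.45 with GFP), and with V5 also without either GFP array (-0.37 each). Usp4 was lower by -0.29 ± 0.077 with V5 and -0.21 ± 0.077 with GFP. Its V5 call ended without V5 replicate 1 or input replicate 1 (-0.26 each), its GFP call without GFP replicate 1 (-0.13), input replicate 1 (-0.18), input replicate 2 (-0.24) or either V5 array (-0.21 each), and with median scaling it was at 0.03 and 0.13. Usp46 was lower by -0.63 ± 0.062 with V5 and -0.74 ± 0.062 with GFP, and Usp7, a stabiliser of p53 regulators, was at -0.10 ± 0.069 with each tag and did not pass.

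Counted over all arrays, 14 of the 48 measured members (29.2%) had all 6 precipitate arrays above both input arrays, beside 33.8% of all genes, and 25 (52.1%) had all 6 below, beside 26.9% of all genes. These counts include the IgG and input arrays on which Usp19 was chosen and carry no test. The 9 members in neither class were Usp3, Usp5, Usp22, Usp26, Usp29, Usp32, Usp43, Usp45 and Usp49.

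How far a member's difference depends on the probe was examined in the 30 members with more than 1 measured probe. For V5 minus input, the probes of 11 of these 30 spread over more than 1 on the log2 scale and those of 8 had opposite signs, with a median range of 0.71. For V5 minus IgG, 3 spread over more than 1 and 7 had opposite signs, with a median range of 0.23. Probes of Usp12, Usp15, Usp26, Usp30, Usp37, Usp3, Usp42 and Usp49 disagreed in sign for V5 minus input. Those of Usp15, Usp26, Usp32, Usp33, Usp38, Usp49 and Usp52 disagreed for V5 minus IgG. With GFP, probes of 8 members disagreed in sign against IgG, Usp47 among them. Against input those of 7 did, Usp12 and Usp30 among them.

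**Figure D4:**
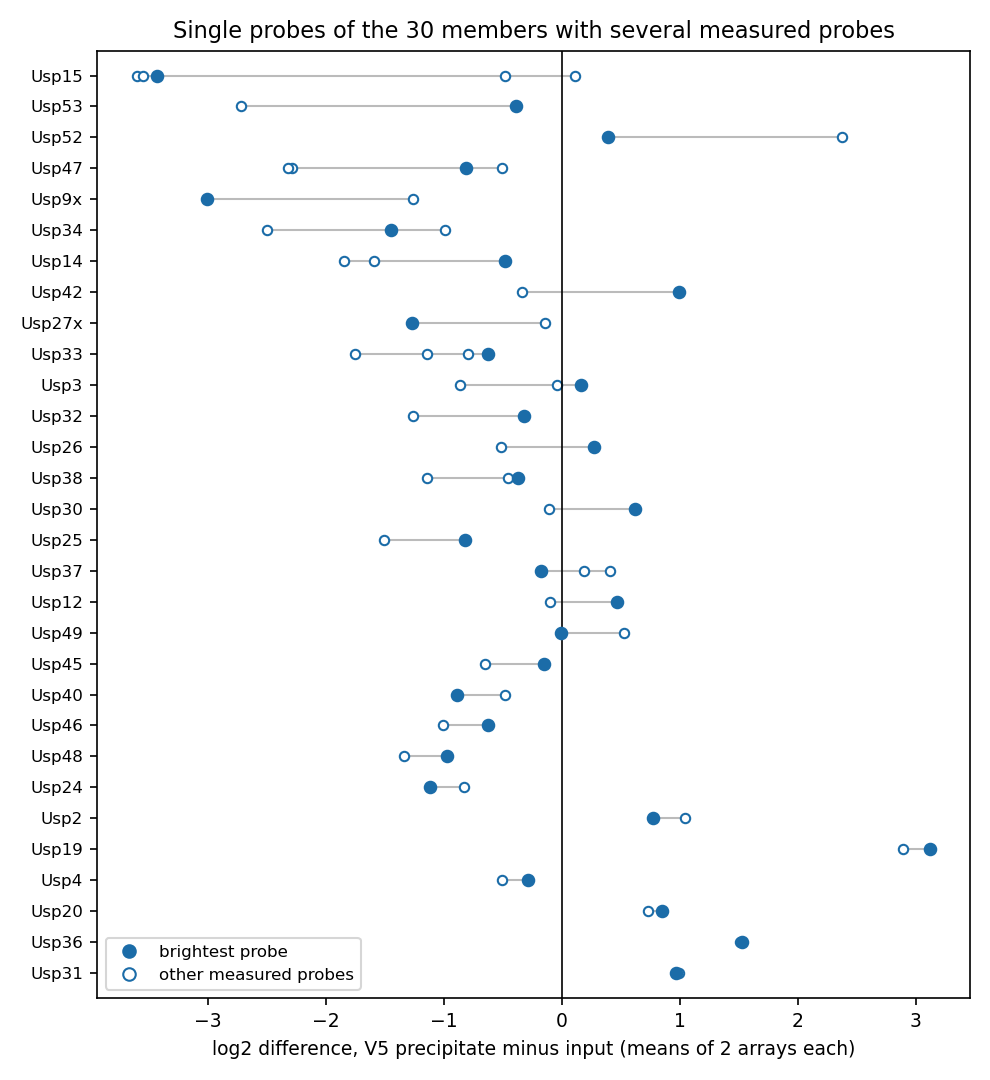
Log2 difference of the V5 precipitate from input for every measured probe of the 30 members with more than 1, sorted from the widest range at the top, with filled circles for the brightest probe and open circles for the others. The probes of Usp15 run from -3.60 to 0.11, while the pairs of Usp19, Usp20, Usp31 and Usp36 lie close together.

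The widest disagreement against the mock outside Usp32 and Usp33 was in Usp52. Its brightest probe had -0.12 and -0.25 with V5, -0.05 and -0.16 with GFP, and -0.06 and -0.02 with IgG, and did not pass with either tag (-0.14 ± 0.081 and -0.06 ± 0.081). Its dimmer probe had -2.24 and -2.26 with V5, -1.80 and -1.75 with GFP, and -3.69 and -3.48 with IgG, or 1.34 and 1.81, with no overlap between groups. Taken in pairs, arrays of these groups did not overlap in 71.3% to 86.4% of all genes. Only the brighter of the pair was matched to a RefSeq transcript, that of Pan2. Usp53, one of the 11 members counted above, has a second probe that was above background in input and on 0 precipitate arrays, so its range is set by signal below background. Of the 107 member probes, 66 matched a RefSeq accession.

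Between the tags, which share a slide and one fusion protein, few members differed. With V5 against GFP, 1 of 48 members was higher and 2 were lower, or 6.25%, where 13.9% of all genes were called, 6.76% higher and 7.17% lower. Usp18 had -1.74 and -1.68 with V5 and -2.07 and -2.10 with GFP, a difference of 0.38 ± 0.093 (adjusted p = 0.046). Usp3 differed by -0.41 ± 0.074 (adjusted p = 0.0308) and Usp22 by -0.40 ± 0.084 (adjusted p = 0.037), and in each of these genes the arrays of the tags did not overlap, as in 71.3% of all genes. The values of V5 minus GFP ran from -0.84 for Usp29 to 0.38 for Usp18, with a median of 0.03 beside 0.09 over all genes. The 3 calls ended without any 1 array of V5, GFP or input, and with only the 4 arrays of the slide in the fit limma called 0 members and 2 of all genes, with 11 members at an unadjusted p under 0.05. Without either IgG array, whose spread then leaves the fit, calls rose both among members and over all genes, with Usp19 among the members called higher. The median stayed at 0.03 for members, beside 0.09 over all genes.

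By role, no list had all of its tested members called in 1 direction. Against IgG, where 16.7% of all genes were higher and 40.3% lower with V5, and 21.6% and 52.1% with GFP, members of the proteasome and chain recycling gave 1 higher and 1 lower of 4 tested with each tag, and those of endosomes and receptors 2 higher and 1 lower of 8 with V5, and 4 and 1 with GFP. Members of mitochondria and autophagy gave 0 higher and 1 lower of 3 with V5, and 0 and 2 with GFP. Members of RNA processing gave 0 higher and 1 lower of 4 with V5, and 0 and 2 with GFP, and those of immune signalling 0 higher and 1 lower of 3 with each. Members named for the testis or sex chromosomes gave 1 higher and 1 lower of 6 with V5, and 2 and 1 with GFP, and inactive or non-protease members 0 and 1 of 5 with V5, and 1 and 2 with GFP. Usp29, a description for the reason given above, is 1 of the 2 testis or sex chromosome members higher with GFP. Against input, 37.7% of all genes were higher and 35.5% lower with V5, and 36.2% and 39.1% with GFP. There, 6 of 12 members of DNA repair and chromatin were lower with each tag, with 2 higher for V5 and 3 for GFP. Of the 6 sex chromosome and testis members 4 were lower with each, with 0 higher for V5 and 2 for GFP. Usp9y is among these lower members and Usp29 among those higher with GFP, and both are descriptions. RNA processing members gave 3 higher and 1 lower of 4 against input with each tag. Usp35 and Usp51 are in these lists and were not analysed here.

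Among other genes of the pathway, 30 of 42 genes listed under deubiquitinases of other families were measured. The list also holds relatives and namesakes that are not active deubiquitinases. Of the 30 genes, 9 were higher and 8 lower with V5 than with IgG, and 10 higher and 13 lower with GFP. Their medians were 0.01 and -0.11, beside -0.21 and -0.32 over all genes, and of all genes 57.0% were called with V5 and 73.7% with GFP. Otud4 was higher by 1.02 ± 0.121 with V5 (adjusted p = 0.00214) and 1.38 ± 0.121 with GFP, and Otud6b by 0.81 ± 0.087 and 1.22 ± 0.087; both belong to the ovarian tumour family of deubiquitinases. Josd2, of the Josephin family, was lower by -0.48 ± 0.067 and -0.58 ± 0.067, a call that ended with spike-in scaling (-0.12 and -0.11). Of 14 measured ubiquitin, ubiquitin-like and activating enzyme genes, 5 were higher and 5 lower with V5, and 5 and 7 with GFP (medians -0.06 and -0.08), beside the same shares of all genes. The higher ones included the ubiquitin-like Sumo2 (1.06 ± 0.108 and 1.43 ± 0.108) and Sumo3 (0.69 ± 0.063 and 1.11 ± 0.063), with V5 and then GFP. The ubiquitin gene Ubb (-0.06 ± 0.097 with V5, 0.08 ± 0.097 with GFP) did not pass.

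Partner subunits of the proteases gave 2 higher and 4 lower of 14 with V5, where 57.0% of all genes were called, and 4 and 5 with GFP, where 73.7% were, with medians of 0.02 and -0.07. Stam, the endosomal partner of Usp8, was higher by 0.62 ± 0.127 with V5 and 0.72 ± 0.127 with GFP, while Usp8 itself was at 0.00 ± 0.106 and -0.05 ± 0.106. Atxn7l3, the subunit that activates Usp22, was lower by -0.37 ± 0.061 with V5 and -0.31 ± 0.061 with GFP, opposite in sign to Usp22, and so was its relative Atxn7l2 (-0.40 ± 0.079 and -0.47 ± 0.079). Adrm1, a ubiquitin receptor of the proteasome, was lower by -0.25 ± 0.067 and -0.42 ± 0.067, and the V5 call ended without V5 replicate 1 (-0.26) or 2 (-0.24). With spike-in scaling Atxn7l3 (0.16) and Atxn7l2 (0.01) turned positive with GFP, and Adrm1 with V5 (0.11) and GFP (0.06).

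The authors' deposited table gives group means for V5, GFP and input and none for IgG. For 25 members with a single entry there, the sign of the table's log2 ratio was that found here in 22 for V5 over input, 22 for GFP over input and 20 for V5 over GFP. In the authors' deposited table Usp1 had a mean of 34.11 with V5 and 35.1 with GFP, against 67.39 in input.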

How the data were processed

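RNA precipitated with antibodies against V5 or GFP, with normal mouse IgG, and input RNA were measured on 8 one-colour arrays, 2 per group. Spot intensity was deposited as background-subtracted signal from Agilent Feature Extraction 9.1.3.1 without scaling between arrays, according to the file headers. The authors' deposited table of signal values holds group means, scaled to the median in GeneSifter per the file's comment lines, and 6 of its columns were not used here.

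Control spots and spots flagged as outliers were left out, spots of a probe averaged, and each array's 75th percentile of log2 signal subtracted. The filter kept 25629 probes that exceeded background clearly in every array of some group, and the brightest stood for each of 17593 genes. Group means were fitted over all 8 arrays with limma 3.58.1 in R 4.3.3 (4 residual and 2.41 prior degrees of freedom), with a two-sided test and p-values adjusted by Benjamini-Hochberg across the genes (threshold 0.05). All adjusted p-values are from limma. The procedure was tested on simulated data. The number of arrays limits the precision.

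The members, lists and rules were chosen with earlier results of these data known. The rule named Usp19 and the bait; in each tested comparison up to 8 called members in each direction by size of change, with arrays that do not overlap and both arrays of the brighter group above background; members with probes of opposite sign, below background in all groups or on sex chromosomes; Usp6nl; and of each list up to 3 genes by p. Other members were named after their values were seen. RefSeq (GRCm38.p6) gave symbols and neighbours. Coordinates and sequences were not used here. Alternatives were normexp, quantile, median and spike-in scaling, 2 filters, the choice of probe, the arrays fitted, the replicate block, and local background subtraction with an offset of 50, chosen after seeing the data. Some genes of the pathway lists are counted and not reported by name here.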

Additional observations from a re-analysis of the deposited data

How the results depend on the processing

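Called differences of the named genes kept their direction with normexp, quantile normalization, other filters, fewer arrays, local background subtraction and the replicate block. The cause of the changes below was not tested. With spike-in scaling the sign turned against IgG with V5 for Usp11 (0.10), Usp18 (0.05), Usp20 (0.03), Usp49 (0.02), Usp54 (0.03) and Adrm1 (0.11). With GFP it turned for Usp10 (0.02), Usp11 (0.33), Usp28 (0.29), Usp30 (0.06), Usp39 (0.20), Usp40 (0.22), Usp48 (0.22), Usp49 (0.10), Usp54 (0.10), Adrm1 (0.06), Atxn7l2 (0.01) and Atxn7l3 (0.16), and for V5 against input for Usp13 (-0.03) and Usp52 (-0.04). Median scaling turned Usp28 (0.11), Usp39 (0.01), Usp40 (0.03) and Usp48 (0.04) with GFP against IgG, Adrm1 with V5 against IgG (0.01), and Usp4 against input (0.03 with V5, 0.13 with GFP). The mean of the measured probes turned Usp32 (-0.21 with V5, -0.08 with GFP), Usp33 with V5 (-0.10) and Usp49 with GFP (0.04). For Usp32 and Usp33 this mean includes a probe near background. Usp19 in IgG minus input was 3.46 with that mean, 3.45 with normexp, 3.37 with quantile normalization and 2.79 with spike-in scaling.

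Counts of members higher and lower were as follows. For V5 against IgG they were 0 and 0 with normexp (8 members at an unadjusted p under 0.05), 0 and 0 without both arrays of conflicting descriptions (8 such members), 26 and 0 with spike-in scaling, 17 and 0 with median scaling, 11 and 5 with quantile normalization, and 18 and 16 for single probes. The lower count was 13 with local background subtracted, 5 without the filter on dim probes and 4 with only the arrays of both groups. For GFP against IgG they were 5 and 2 with normexp, 31 and 0 with spike-in scaling, 21 and 4 with median scaling and 28 and 24 for single probes. For V5 against input they were 8 and 14 with normexp, and 20 and 48 for single probes, with 7 higher with spike-in scaling. For GFP against input they were 8 and 14 with normexp and 25 and 48 for single probes. For V5 against GFP they were 0 and 0 with normexp (2 members at an unadjusted p under 0.05), without the filter, with only the arrays of both groups or of the slide, without the arrays of conflicting descriptions and with the replicate block, and 2 and 5 with local background subtracted. There, 0 were higher with the mean of the measured probes, spike-in or median scaling, 3 were higher with probes above background on all 8 arrays, and 5 were lower for single probes. In the limma fits that called 0 members both ways here, 2 to 11 members had an unadjusted p under 0.05. Of all 17593 genes, normexp called 0 for V5 against IgG and 0 for V5 against GFP, where the main fit called 10036 and 2452. It called 3223 of all genes for GFP against IgG, 5255 for V5 against input and 5703 for GFP against input. The background mean fitted by normexp differed between replicates, at -13.7 and -391 for V5.

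Leaving out each array in turn, members higher and lower ranged from 4 to 12 and from 4 to 9 for V5 against IgG, from 8 to 13 and from 10 to 14 for GFP against IgG, from 12 to 14 and from 20 to 26 for V5 against input, from 15 to 16 and from 20 to 24 for GFP against input, and from 0 to 5 and from 0 to 4 for V5 against GFP. Replicate numbers did not pair the samples: deviations of same-numbered arrays correlated at -0.075 to 0.107. With the replicate block 7 members were higher and 7 lower for V5 against IgG.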
